A study of Mus musculus with 1 sample.

Results

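The 9 genes described here encode the amyloid precursor protein (APP) family and proteases that cut it. They were taken as the rows of the expression table whose symbol is App, Aplp1, Aplp2, Adam10, Adam17, Bace1, Ncstn, Aph1a or Psen2, and each matched 1 of 23282 rows. The table came from 1 RNA-seq library of control mixed glia. The glia were cultured from the ventral midbrain (VM) of outbred ICR(CD-1) mice, whose age is given as postnatal day 5, and the study's methods describe growth in serum-containing medium and 1 subculture at near confluence. Per the legends of the study, the controls of this experiment received the vehicle DMSO, while the study's question was how inhibition of the kinase SGK1 changes glia. Inhibitor-treated libraries were not analysed here. The results are therefore levels in 1 library, with no contrast between conditions, no error between cultures and no test. The number of animals behind the culture was not given in the sources used here.

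APP and its relatives APLP1 and APLP2 are single-pass membrane proteins with a large outer part and a short tail inside the cell. Alpha-secretases (the ADAM metalloproteases) cut APP within the amyloid-beta stretch and release a soluble outer part. Beta-secretase (BACE1) cuts instead at the start of that stretch. In either case gamma-secretase, a membrane complex with a presenilin as its catalytic subunit, then cuts the remaining stub inside the membrane, and the second route releases amyloid-beta, the peptide of Alzheimer disease plaques. Neurons are a main source of amyloid-beta in the brain. Astrocytes and microglia also express APP and secretases, and take part in clearing the peptide.

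The cut sites in App are shown first because they define which protease acts where. The stretch that encodes amyloid-beta spans 42 codons of the longest annotated App protein (residues 672 to 713 of 770). In the GRCm38 build it lies on the minus strand of chromosome 16, in coding sequence of exons 16 and 17 of 18 (84965670 to 84965723 and 84962791 to 84962868, counted with 1 flanking codon at each end). Capitals mark the pairs of codons on either side of the beta cut, the alpha cut after codon 16 of the stretch, and the gamma cut that gives the 42-residue form.
App: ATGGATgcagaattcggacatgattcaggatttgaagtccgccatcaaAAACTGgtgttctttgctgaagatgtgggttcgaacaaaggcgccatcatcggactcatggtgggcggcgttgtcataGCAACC

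The 4 amino acids that open the amyloid-beta stretch were found 1 time in the App protein and 0 times in those of Aplp1 and Aplp2. What the 3 family members share instead is the tail motif YENPTY, to which cytoplasmic adaptor proteins bind. It was found 1 time in each protein, and 8, 7 and 8 residues followed it in App, Aplp1 and Aplp2. The bases that encode it are printed with 3 codons on either side, and capitals mark the motif. They lie in the last exon of each gene, on the minus strand, at chr16:84955349-84955384 (App), chr7:30435308-30435343 (Aplp1) and chr9:31150889-31150924 (Aplp2).
App: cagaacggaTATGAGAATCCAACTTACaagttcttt
Aplp1: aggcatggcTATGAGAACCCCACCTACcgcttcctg
Aplp2: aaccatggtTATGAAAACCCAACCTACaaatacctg

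Of the 18 motif bases, App shared 15 with Aplp1 and 15 with Aplp2, and Aplp1 shared 16 with Aplp2. Across the whole proteins, App and Aplp2 were identical at 57.6% of 701 aligned residues, App and Aplp1 at 44.9% of 622, and Aplp1 and Aplp2 at 46.3% of 635. At the transcript level, no stretch of at least 100 bases at 90% identity or more was shared between any pair of the 3 genes. With genes outside the family, Aplp1 and Aplp2 shared 0 such stretches, and App shared them with 6 genes.

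The catalytic residues of the proteases are encoded by the following stretches. They show the contrast between the alpha-secretases, which are zinc enzymes, and BACE1 and presenilin 2, which are aspartyl proteases. For Adam10 and Adam17, capitals mark the 3 histidine codons that bind zinc (from residue 384 of 749 and 424 of 846). For Bace1, capitals mark the 2 aspartyl motifs (from residues 93 and 289 of 501), and for Psen2 the motif that holds a catalytic aspartate (from residue 363 of 448).
Adam10: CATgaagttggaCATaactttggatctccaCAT
Adam17: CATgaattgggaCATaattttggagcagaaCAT
Bace1, first: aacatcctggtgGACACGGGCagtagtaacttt
Bace1, second: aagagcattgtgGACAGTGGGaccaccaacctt
Psen2: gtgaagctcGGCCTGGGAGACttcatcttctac

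In GRCm38 the Adam10 stretch is on the plus strand of chromosome 9, in exons 9 and 10 of 16 (70754296 to 70754325 and 70761583 to 70761585). The Adam17 stretch is in exon 12 of 20, at chr12:21336732-21336764 on the minus strand. The Bace1 stretches are in exons 2 and 6 of 9, at chr9:45852891-45852923 and chr9:45858412-45858444 on the plus strand, and the Psen2 stretch is in exon 10 of 11, at chr1:180228924-180228956 on the minus strand. Adam10 and Adam17 were identical at 31.8% of 695 aligned residues. Ncstn (708 residues) and Aph1a (265 residues) encode subunits of gamma-secretase that carry no catalytic residue.

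The values are normalised read counts per gene as deposited, and their sum over all rows was 27569507. Genes at 10 or above were called detected. All 9 genes were detected, where 67.2% of all rows were. Their values ran from 570 for Bace1 to 31822 for App, and together they made up 0.236% of the sum. The median over the 9 genes was 2829. The median of all detected genes was 469, and all 9 genes were above it, where 33.6% of all rows were.

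**Figure D1:**
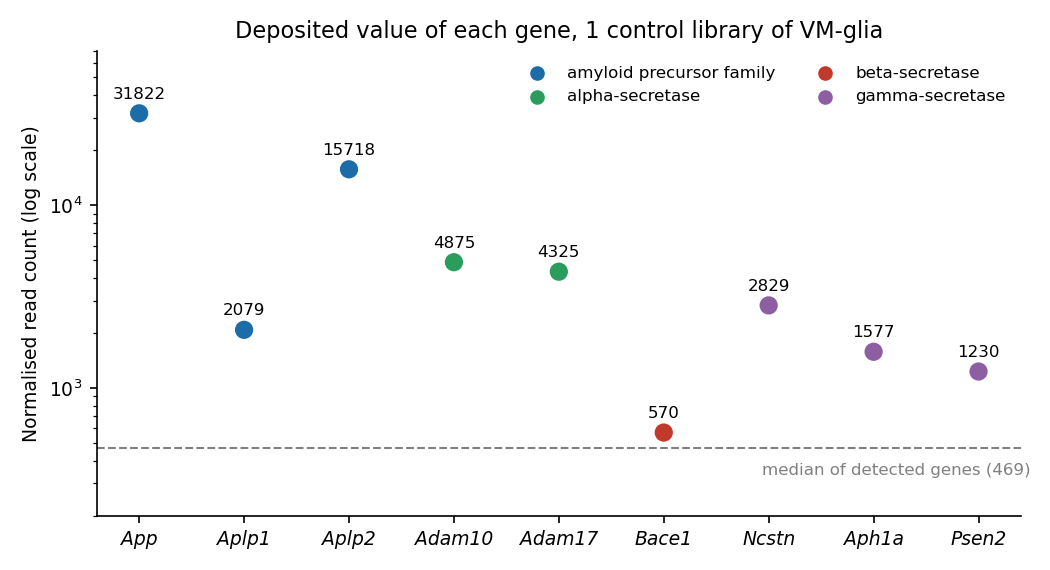
Deposited normalised read count (log axis) of each of the 9 genes in the control library, 1 point per gene, coloured by class, with the median of all detected genes as a dashed line. App at 31822 and Aplp2 at 15718 are highest, and Bace1 at 570 lies closest to the median of 469.

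The APP family held 0.180% of the sum of all values, most of the 0.236% of the 9 genes. App, the amyloid-beta precursor itself, had a value of 31822, or 1154 per 1000000 of the sum. It ranked 69 among all rows and lay above 99.6% of detected genes. Aplp2, the relative expressed in most tissues, had a value of 15718 (570.1 per 1000000), rank 204, above 98.7% of detected genes. Aplp1, whose expression is known to be mostly neural, had a value of 2079 (75.4 per 1000000), rank 2569, above 83.6%. The family thus spanned from 4.43 to 67.9 times the median of detected genes.

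The alpha-secretases came next. Adam10, the main constitutive alpha-secretase and also the protease that cuts Notch receptors, had a value of 4875 (177 per 1000000, above 94.0% of detected genes). Adam17, the protease that releases TNF and ligands of the EGF receptor, had a value of 4325 (157 per 1000000, above 93.0%). Both genes were thus in the upper tail of the library.

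Bace1, the beta-secretase, had the lowest value of the 9 genes, 570 (20.7 per 1000000). It lay above 54.3% of detected genes and was 1.22 times their median. Its value also depends on how reads were assigned. In total 2061 bases, or 32.5% of its annotated exons, overlap genes on the opposite strand, among them Rnf214 with 975 bases and a value of 629. The remaining ones, Gm49338 (951 bases) and Gm16536 (135 bases), had no value under these symbols. The strand setting of the counting was not stated, so reads of these overlaps could belong to either gene. Its paralogue Bace2, added here with its level already known, stood at 2373 (86.1 per 1000000, above 85.8% of detected genes) and no exon overlap with another gene. BACE2 is known to cut APP mostly inside the amyloid-beta stretch.

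Of the 3 gamma-secretase subunits described, Ncstn was highest. Ncstn encodes nicastrin, the large outer subunit that gates access of substrates, and had a value of 2829 (103 per 1000000, above 88.1% of detected genes). Aph1a, the scaffold on which the complex assembles, had a value of 1577 (57.2 per 1000000, above 78.5%). Psen2 encodes presenilin 2, which is directed to late endosomes and lysosomes, and had a value of 1230 (44.6 per 1000000, above 72.9%). Exon overlaps with opposite-strand genes covered 4.91% of Ncstn, with Copa at a value of 7037, and 12.9% of Aph1a, with Car14 at 143. Transcripts of Aph1a also shared 798 bases at 100% identity with Gm15429, whose level was not analysed here, and 347 bases at 99.7% identity with Jagn1, whose value was 363. Psen2, Aplp1, Aplp2 and Adam10 overlapped no exon of another gene. The overlap covered 0.869% of App and 4.35% of Adam17.

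Reads from stretches that resemble those of other genes might also be placed on either gene, and how such reads were treated is unknown. The minimum of 90% identity is loose, and some stretches lie near it, as 1 of App with Gm38123 at 90.4%. The counts below are therefore of similar stretches, not of reads known to be ambiguous. Over all annotated transcripts, Adam17 shared a stretch of at least 100 bases at 90% identity or more with 1294 other genes and Ncstn with 165. With stretches of at least 300 bases these counts were 1 and 0. In the transcript that encodes its longest protein, each shared a stretch with 1 other gene only, over 6.96% of the bases of Adam17 and 6.76% of those of Ncstn. These genes were Iah1 and Copa, those of the exon overlaps above, so these stretches are not a further source of ambiguity. In the same comparison such stretches covered 70.1% of Aph1a, 34.1% of Bace1 (with 3 genes, those of its exon overlaps) and 6.33% of App. They covered 0% of Aplp1, Aplp2, Adam10 and Psen2. The Aph1a transcript used here has 1601 bases. Its other complete transcript has 2863 bases, and the share for that transcript was not computed. On the transcripts used, Aph1a, followed by Bace1, had the largest part in shared stretches. Whether this order holds for the longer Aph1a transcript was not examined.

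**Figure D2:**
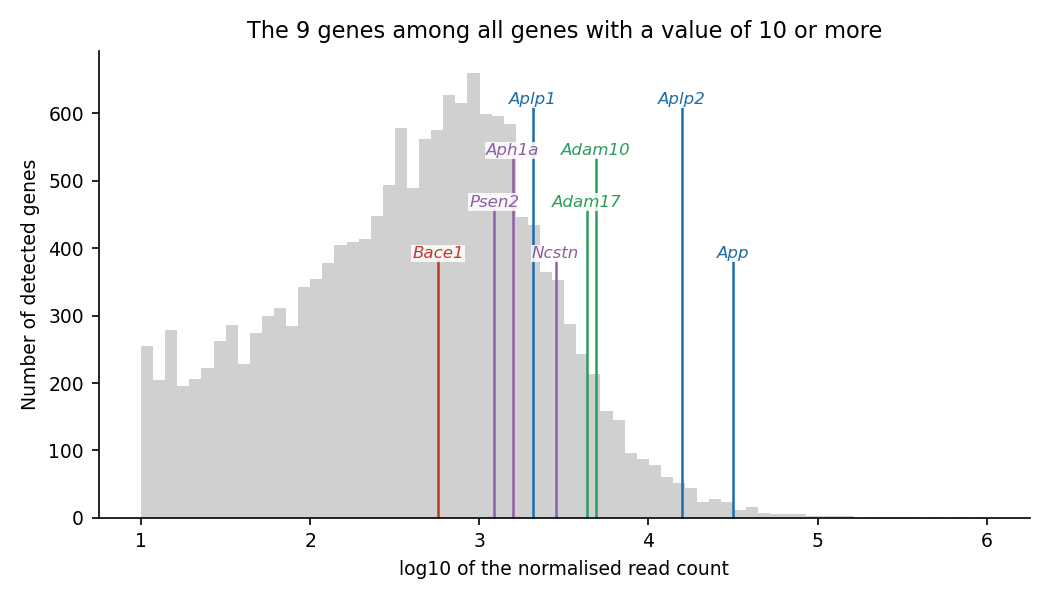
Histogram of the log10 normalised read count over all genes with a value of 10 or more, with a line at each of the 9 genes (line heights carry no value). Bace1 sits near the middle of the distribution, with 54.3% of detected genes below it, and App lies in the right tail with 99.6% below it.

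Read counts of different genes depend on their lengths, and the values were taken as not yet divided by length. For comparisons between genes, each value was divided by the length of its annotated exons in kilobases and rescaled to sum to 1000000 over the 22889 rows with a length. This is called the per-length level. Because the transcripts present in the culture are unknown, it was also computed with the longest transcript, the longest coding length, and the exons of transcripts linked to RefSeq, the annotation that the authors counted on. With exons, 8 of 9 genes were above the per-length median of detected genes (9.65), where 33.8% of rows with a length were. Bace1 was the exception, at 0.877 times the median. With coding length all 9 were above the median for that length, for which the share over all rows was not computed.

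Per length, App and Aplp2 were close to each other under all lengths but coding length. The level was 231 for App and 252 for Aplp2, so Aplp2 was 1.09 times App with exons. It was 1.11 times App with the longest transcript and 1.10 times with RefSeq-linked exons. With coding length the order turned, and App was 1.97 times Aplp2 (469 against 237). The length of App is uncertain, since its 6 complete coding transcripts run from 2827 to 8167 bases, while the 3 of Aplp2 run from 3462 to 3634. The 8167 bases are both the longest-transcript and the RefSeq-linked length of App, so these 2 ratios are not independent. Its next longest complete transcript has 3299 bases. The order of App and Aplp2 could therefore not be settled from these values. Both were above the other 7 genes under each of the 4 lengths.

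Aplp1 was lower than both of its relatives under each length. Its per-length level was 64.9 with exons, and App was 3.55 times higher. This factor was 4.63 with the longest transcript, 4.39 with RefSeq-linked exons and 13.0 with coding length. Of the summed per-length level of the family, App made up 42.1%, Aplp2 46.0% and Aplp1 11.9% with exons, against 63.2%, 32.0% and 4.86% with coding length.

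Among the proteases, Adam10 had a per-length level of 93.5 and Adam17 of 57.0 with exons. The ratio of Adam10 to Adam17 was 1.64 with exons, 1.10 with the longest transcript, 1.11 with RefSeq-linked exons and 1.27 with coding length, so that Adam10 was the higher under each. Bace1 had a per-length level of 8.46 and was lowest of the 9 genes under each of the 4 lengths. Adam10 was 11.1 times Bace1 with exons and 5.72 times with coding length. The sum of both alpha-secretases was 17.8 times Bace1 with exons, with a range from 10.2 to 21.6 over the lengths. Bace2 was 3.35 times Bace1 with exons, with a range from 3.30 to 4.06.

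Gamma-secretase holds 1 copy of each of its subunits, so their transcripts are compared on the per-length scale. Ncstn had a level of 67.1, Aph1a of 43.1 and Psen2 of 26.8 with exons. Ncstn was 2.51 times Psen2 with exons, and 1.54 times with the longest transcript, 1.65 times with RefSeq-linked exons and 1.46 times with coding length. Ncstn was 1.56 times Aph1a with exons, but Aph1a was 1.49 times Ncstn with coding length. In Aph1a, 795 of 3450 exon bases are coding, beside 2124 of 3975 in Ncstn. Aph1a and Psen2 also changed places, with Psen2 higher under the longest transcript (44.1 against 39.9) and RefSeq-linked exons (39.6 against 37.0). The order of the 3 subunits is thus fixed only in that Ncstn exceeded Psen2. Not every subunit of the complex is reported here.

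**Figure D3:**
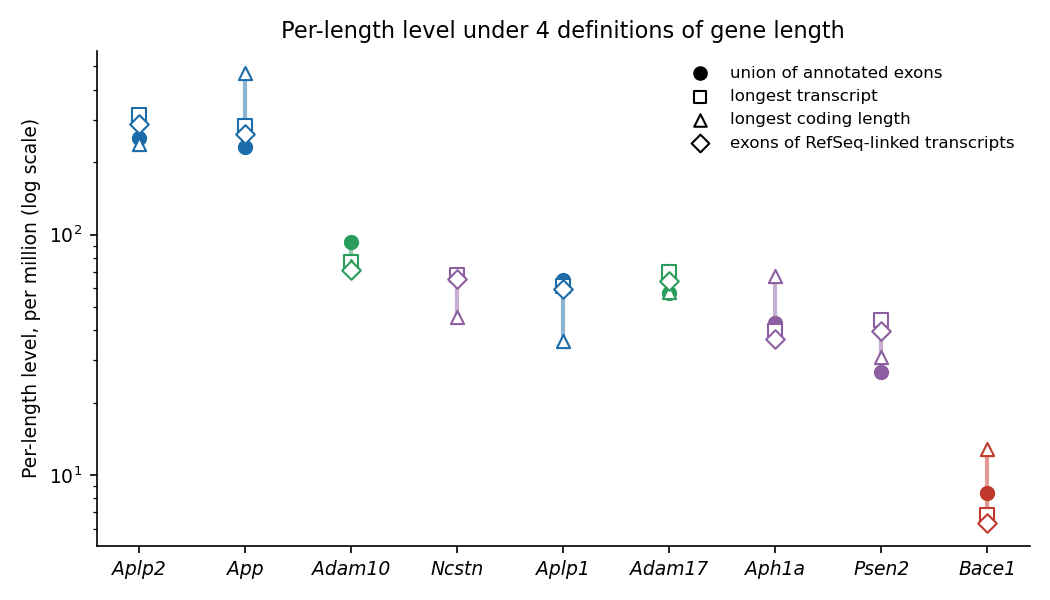
Per-length level (log axis, per 1000000) of the 9 genes, ordered by the level with exons (filled circles), with open squares, triangles and diamonds for the longest transcript, coding length and RefSeq-linked exons, and a bar from the lowest to the highest of the 4. App and Aplp2 overlap each other above the other genes, the 6 genes from Adam10 to Psen2 lie between 26.8 and 93.5, and Bace1 lies below the rest.

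From high to low, the levels with exons were Aplp2, App, Adam10, Ncstn, Aplp1, Adam17, Aph1a, Psen2 and Bace1. Under the 4 lengths Adam10 was the third each time, and the ranges of Ncstn, Aplp1, Adam17 and Aph1a overlapped. With 1 library there is no spread between cultures, and which neighbours in this order differ beyond it was not tested.

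Annotation also limits what a gene value says about the protein. A transcript was counted as complete when its reading frame ran from a start to a stop codon, with no filter on its annotated type. App has 6 complete coding transcripts with 6 protein lengths from 582 to 770 residues. Among them are the 695-residue form, best known from neurons, and the 751- and 770-residue forms, which are known as the main forms of other cells and carry a protease inhibitor domain. Aplp2 has 3 such transcripts (695 to 751 residues), Bace1 has 2 (467 and 501 residues) and Aplp1 has 1. Adam17 has 7, which run from 702 to 4469 bases and from 38 to 846 residues. Ncstn has 3 (62 to 708 residues), Adam10 has 2 (513 and 749), Aph1a has 2 (247 and 265) and Psen2 has 5 (447 or 448). Some frames are short for their transcripts, with 38 residues over 16 exons in Adam17 and 62 over 18 exons in Ncstn. Whether such transcripts yield a protein was not examined. The values were per gene, so the share of each form could not be read.

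The promoters are described by their base composition. A window of 300 bases around the start, from RefSeq on GRCm38.p6, was found for 8 of the 9 genes, with a second window for Psen2. The GC content of these 9 windows ran from 47.7% to 73.3%, with a median of 67.0%, beside 52.7% over all 32851 windows. The letters GGGCGG, on either strand, were in 7 of the 9 windows and in 35.7% of all windows, and TATAAA, which few windows hold, was in 0 of the 9 and in 13.6% of all. The windows of Ncstn and the second of Psen2 held neither motif. Expression in other cells was not analysed here, so no link between these features and the values was examined.

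Other genes of the pathway were placed beside the 9 by lists of known roles. For the counts of these lists and of the marker lists further below, the shares over all rows serve as background. Of all rows, 67.2% were detected and 33.6% had a value above the median of detected genes. The lists were chosen with earlier results of these data known, so the counts describe them and test nothing. Among 7 other catalytic ADAM proteases, all were detected and 4 had a value above the median of detected genes. Adam8, which is known from myeloid cells, had a value of 16693 and a per-length level of 339, above both Adam10 and Adam17 with exons. Adam15 was at 8905 and Adam9, a further protease able to cut APP, at 6773. Per length with exons, Adam15 (137) and Adam9 (155) were also above Adam10 and Adam17, and the rest of the list was below them. Adam33 was the lowest at 16. Of the intramembrane aspartyl proteases related to presenilin, 4 genes were analysed and 3 were detected. Sppl2a was at 1218, Sppl2b at 706 and Sppl3 at 697, and Sppl2c was listed at 0. Their per-length levels from 9.88 to 14.1 were below that of Psen2 with exons.

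The partners and inhibitors of ADAM10 and ADAM17 were all detected (14 of 14), and 11 had values above the median of detected genes. The highest value was that of Timp3, a secreted inhibitor of ADAM17, at 9533. Its relative Timp1, an inhibitor of ADAM10, was at 1999, but per length Timp1 (212) was above Timp3 (110). The second highest value was that of Furin, which removes the inhibitory propeptide of both proteases, at 4404. Of the iRhom proteins that carry ADAM17 to the cell surface, Rhbdf2 was at 2210 and Rhbdf1 at 655. Among the tetraspanins that escort ADAM10, Tspan14 was at 901, Tspan5 at 768, Tspan15 at 741, Tspan17 at 711, Tspan33 at 185 and Tspan10, the lowest of the list, at 16. Per length, Tspan17 (40.4) and Tspan14 (32.0) were the highest of the 6.

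Genes linked to assembly or modulation of gamma-secretase were all above the median (7 of 7). Itm2b, whose BRI2 product binds APP and limits its cleavage, had a value of 42464. Its per-length level of 1465 was above the 231 of App. Its relative Itm2c was at 10890, the trafficking protein gene Tmed10 at 9059, and Ifitm3, an interferon-induced modulator of gamma-secretase, at 3626. Gsap was the lowest at 1581.

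Of 14 genes for adaptors that bind the APP tail, 14 were detected and 10 were above the median. Dab2, an endocytic adaptor, was at 10773, Snx17 at 2203, Apbb2 at 2099 and Apba2 at 1928. Dab1 was the lowest at 81. Apba1 and Apba2 encode related X11 adaptors known from neurons, and Apba1 was at 198, well under Apba2. All 14 trafficking genes were above the median. Lrp1, an endocytic receptor that binds APP, was at 53849, Picalm at 11846 and Rtn4 at 8038, and Gga3, which sorts BACE1 to lysosomes, was the lowest at 832.

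Genes for enzymes and carriers that act on amyloid-beta included the highest value of the table, Apoe at 1010177. The lysosomal proteases Ctsd and Ctsb were at 300496 and 164610 and the protease inhibitor Cst3 at 40346. Among the enzymes best known to degrade the peptide, Ece1 was at 2030, Ide at 1456 and Mme, which encodes neprilysin, at 491. Ace was the lowest of this list at 80. All 18 genes were detected and 15 were above the median.

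Substrates of the proteases were also present. All 20 genes in a list of substrates of ADAM10, ADAM17 or gamma-secretase were detected, and 17 were above the median of detected genes. The highest were Lrp1 at 53849, Csf1r at 31413, Axl at 7591 and Hbegf at 6534, and the lowest was Epha4 at 167. Of 9 substrates of BACE1, 4 were above the median (44.4%, beside 33.6% of all rows). Chl1 was at 1861, St6gal1 at 1383, Sez6 at 1253 and Jag1 at 684, and Sez6l was the lowest at 27. The list median was 287, beside 1971 for the other substrate list and 469 for all detected genes. Several of these substrates, Sez6 and Sez6l among them, are best known from neurons, while St6gal1 encodes a Golgi sialyltransferase and Jag1 a Notch ligand of many tissues.

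**Figure D4:**
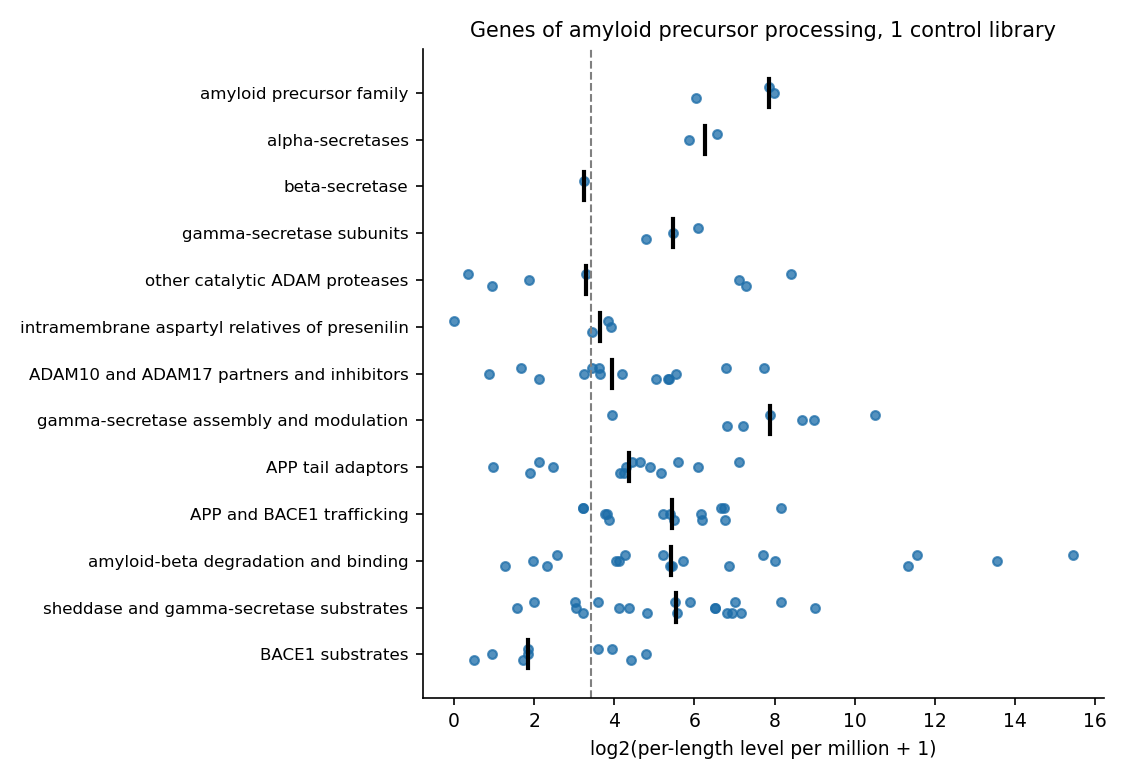
Per-length level with exons, as log2(level per 1000000 + 1), for the genes of each pathway list, 1 point per gene, with the list median as a black bar and the median of detected genes as a dashed line. The APP family (median 231) and the genes of gamma-secretase assembly and modulation (median 237) lie farthest to the right, and Bace1 (8.46), the other catalytic ADAM proteases (median 8.74) and the substrates of BACE1 (median 2.62) lie left of the dashed line.

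Markers of cell types were read beside these levels, because the culture was mixed. All 12 microglia markers (lowest Tmem119 at 984, with C1qa at 32619 and Csf1r at 31413) and all 12 astrocyte markers (484 for Fgfr3 to 17222 for Gfap) were above the median of detected genes, as were 7 of 8 mesenchymal markers (455 for Lum to 95749 for Fn1) and 6 of 10 markers of the oligodendrocyte lineage (lowest Sox10 at 48, with Mbp at 10966). Of 12 neuron markers, 9 were detected and 3 were above the median. Stmn2 led with 3802, followed by Map2 with 868 and Nefm with 508, while Rbfox3 was at 20, Syt1 at 6, and Slc17a6 was listed at 0. Of 7 endothelial markers 1 was above the median. Summed per 1000000, the markers gave 7340 for microglia, 5814 for mesenchymal cells, 2358 for astrocytes, 1326 for the oligodendrocyte lineage, 205 for neurons and 97.2 for endothelial cells. These lists differ in size, and Fn1 alone gave 3473 of the mesenchymal sum, so the sums do not rank the cell types by number. In such a bulk sample, the number of cells of a type and the RNA per cell cannot be told apart. Which of these cells carried App, Aplp2 or the secretases was not tested.

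Neuron markers bear most directly on Aplp1 and Bace1, both known for high expression in neurons. Per length with exons, Aplp1 (64.9) was above all 12 neuron markers, of which Stmn2 was the highest at 64.0 and the median was 1.36. Under the other 3 lengths Stmn2 was higher than Aplp1 (80.7 against 60.9 with the longest transcript) and Aplp1 was above the other 11. Aplp1 was also above 7 of 10 markers of the oligodendrocyte lineage, where it is known to be expressed, under each length. Bace1 was above 11 of the 12 neuron markers with exons and above 9 with the longest transcript. It was above 3 of the 10 markers of the oligodendrocyte lineage with exons, and above 5 with coding length. The part of neurons or of oligodendrocyte lineage cells in these values was not tested.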

How the data were processed

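RNA was measured in 1 control library of mouse VM-glia. The deposited values are whole numbers per gene that the authors describe as normalised read counts, and were treated as a score, not as raw counts. Per the study's methods, reads were trimmed at low quality, mapped to GRCm38/mm10 with STAR and counted on RefSeq exons with HTSeq-count, whereas the submitters' processing notes name TopHat and edgeR. The study also names FPKM, a measure scaled by exon length, for its RNA-seq data. Whether the deposited whole numbers had been divided by length was not stated, and the per-length levels assume that they had not. The steps of the normalisation, the strand setting and the treatment of multi-mapped reads were not given in the sources used here. Since the number of reads is unknown, no interval or detection floor is given, and another normalisation could change levels and their order.

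Exon lengths and overlaps came from GENCODE M21 (GRCm38), matched by symbol or older symbol (22889 rows, 98.3%). Coding length was the longest annotated coding sequence, and RefSeq-linked exons were added after seeing the data. Coding stretches were found by motif in GENCODE transcripts, identity came from global alignment of translations, and shared stretches from BLAST 2.17.0. Python 3.11.15, pandas 2.3.3 and Biopython 1.88 were used. The arithmetic of the levels was checked by multiplying some values of this library by known factors and recovering those factors. The 9 genes and the lists were chosen with earlier results of these data known. All 9 genes are named, and of each list up to 4 of the highest, the lowest and those at 0. Further list genes, such as the tetraspanins, iRhoms and peptide-degrading enzymes, were named after their values were seen. A few marker genes that the rule picks are left out of the text. Alternatives were other minima, sums and lengths, and lists without undetected genes. A value was said to move when it changed by more than 1.5 times.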

Additional observations from a re-analysis of the deposited data

How the results depend on the processing

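All 9 genes were detected at minima of 1, 10 and 100, which follows from their lowest value of 570. The shares over all rows, 67.2% detected and 33.6% above the median, were computed for the minimum of 10 only. The number above the median was 9 with genes at 1 or more and 8 with genes at 100 or more, whose median of 779 exceeds Bace1. Leaving Rn45s or the 10 highest genes out of the sum multiplies all 9 genes by the same factor, so it could not change their order. App went from 1154 per 1000000 to 1182 without Rn45s and to 1333 without the 10 highest genes, less than 1.5 times. Length mattered more. With coding length, the log2 ratio of Aplp2 to App reversed from 0.13 to -0.98 and that of Aph1a to Ncstn from -0.64 to 0.57. It moved from -1.83 to -3.70 for Aplp1 to App and from -3.47 to -2.52 for Bace1 to Adam10. The ratio of Psen2 to Ncstn moved from -1.33 to -0.62 with the longest transcript, -0.54 with coding length and -0.72 with RefSeq-linked exons. These shifts follow from the lengths alone. The neuron marker median rose from 70.5 to 124 when undetected genes were left out, and the other 18 list medians moved by less than 1.5 times. No paired analysis was possible because there was 1 library, which also limits each value to this culture.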
